A study of Mus musculus with 20 samples.

Results

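Cyp4 genes encode cytochrome P450 enzymes that hydroxylate fatty acids at or next to their far (omega) end. 8 of them were followed here among the 19940 genes of a kidney expression table: Cyp4a10, Cyp4a12a, Cyp4a12b, Cyp4a14, Cyp4b1, Cyp4f13, Cyp4f14 and Cyp4v3. They were listed by gene name, with earlier results of these data known, and 7 of the 8 had enough reads to be tested. The kidneys came from 20 male mice, 1 library per mouse and 5 mice per group. The groups were G3 Tert-/- mice at 47 weeks (old), Tert+/+ mice at 47 weeks (old), G3 Tert-/- mice at 7 weeks (young) and Tert+/+ mice at 7 weeks (young). Telomerase needs the Tert protein to lengthen telomeres, and generation 3 (G3) of knockout breeding has short ones. The sources used here name no strain and no litter. The library kit reads the 3′ end of polyadenylated RNA, about 1 tag per transcript, so counts were not divided by transcript length. Whole tissue was sequenced, so fewer cells of a type and less RNA per cell cannot be told apart.

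In the kidney, Cyp4a enzymes sit mainly in the proximal tubule. They turn arachidonic acid into 20-HETE, a lipid that acts on renal vessels and on salt transport, and start the breakdown of long and medium chain fatty acids to dicarboxylic acids. In mice, Cyp4a12a is the male, androgen-dependent form and the main source of 20-HETE, while Cyp4a10 and Cyp4a14 are classic targets of the fatty acid receptor PPAR alpha and Cyp4a14 is known as a form higher in females. Electrons reach all of these enzymes through Por, the P450 reductase, and Cyb5a, cytochrome b5.

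In GENCODE M21 (build GRCm38), the Cyp4a members lie in a run of 11 Cyp4a genes and pseudogenes over 483 kb of chromosome 4. Cyp4a12a is at chr4:115299046-115332815 (+ strand), Cyp4a12b at chr4:115411624-115439034 (+), Cyp4a14 at chr4:115486200-115496142 (-) and Cyp4a10 at chr4:115518264-115533649 (+). Cyp4b1 follows at chr4:115624725-115647723 (-). Cyp4f14 (chr17:32905070-32917342, -) and Cyp4f13 (chr17:32924688-32947402, -) are neighbours on chromosome 17, and Cyp4v3 is alone at chr8:45304944-45333216 (-). The coding bases of the haem-binding loop show how close the family is. This loop holds the cysteine that binds the haem iron, and its codon is in capitals in these lines, read 5′ to 3′ from the GENCODE transcripts.
Cyp4a10: ttctcaggaggagccaggaacTGCattggg
Cyp4a12a: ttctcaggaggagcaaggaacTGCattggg
Cyp4a12b: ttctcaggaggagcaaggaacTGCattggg
Cyp4a14: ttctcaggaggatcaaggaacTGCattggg
Cyp4b1: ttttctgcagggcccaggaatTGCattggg
Cyp4f13: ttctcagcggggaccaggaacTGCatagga
Cyp4f14: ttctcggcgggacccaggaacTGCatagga
Cyp4v3: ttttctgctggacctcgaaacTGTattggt
Within these 30 bases Cyp4a12a and Cyp4a12b were identical, Cyp4a10 differed from them at 1 base and Cyp4a14 differed from them at 1 base. Cyp4b1 differed from Cyp4a10 at 6 bases, Cyp4f13 from Cyp4f14 at 3, and Cyp4v3 from Cyp4a10 at 10.

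Some members are close copies, which limits how their reads can be told apart. Cyp4a12a and Cyp4a12b differed at 23 of 1527 coding bases (98.5% identity). Their last 300 coding bases were identical. Cyp4a10 and Cyp4a31, a neighbour in the same run, differed at 52 of 1530 coding bases (96.6% identity). The 90 coding bases with the most differences in each pair follow, with the differing bases in capitals (coding bases 661 to 750 of the first pair, 73 to 162 of the second pair).
Cyp4a12a: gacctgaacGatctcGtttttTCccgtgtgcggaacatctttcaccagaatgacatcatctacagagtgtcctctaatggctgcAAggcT
Cyp4a12b: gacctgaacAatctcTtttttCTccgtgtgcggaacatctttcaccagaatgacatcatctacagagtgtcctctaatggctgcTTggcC
Cyp4a10: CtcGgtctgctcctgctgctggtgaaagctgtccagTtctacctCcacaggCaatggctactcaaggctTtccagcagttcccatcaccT
Cyp4a31: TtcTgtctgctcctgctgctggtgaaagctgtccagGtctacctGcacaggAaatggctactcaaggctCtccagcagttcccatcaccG
Each pair differed at 7 bases there. A 3′ tag falls nearer the end of the transcript. In the last 500 transcript bases, 37.0% of all 50-base windows of Cyp4a12a also occurred in Cyp4a12b, against 5.99% of those of Cyp4a10 in Cyp4a31 and none of those of Cyp4a14 or Cyp4v3 in another Cyp4 gene. The sources used here state no read length. Counts of Cyp4a12a and Cyp4a12b are therefore uncertain, and the summed counts of both pairs were tested as well. Cyp4a32, a further near copy of Cyp4a10 (43 of 1530 coding bases differ, 97.2% identity), had no row in the expression table. Its counts could therefore not be analysed. Of the 50-base windows in its last 500 transcript bases, 66.7% also occurred in Cyp4a10 or Cyp4a31.

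Library totals were 7161690 to 9757594 reads. Kidney markers from podocyte to collecting duct were present in every library, among them Slc34a1 of the proximal tubule at 19405 to 41219.6 normalized counts. Tert itself was low everywhere, at 5.11 to 8.31 normalized counts in G3 Tert-/- old kidneys and 7.25 to 16.9 in Tert+/+ old kidneys, and at 0.979 to 5.65 in G3 Tert-/- young kidneys and 4.21 to 15.7 in Tert+/+ young kidneys. A tag from the 3′ end need not lie in the deleted part, so this is a weak check of the labels. Tert+/+ young replicate 1 and Tert+/+ old replicate 4 stood apart from the other libraries on the first principal component of all 20 (22.0% of the variance). Their scores were 67.5 and 56.6, against -39.4 to 21.0 for the other 18. Group means were not taken out, so this component can also hold differences between groups. Summed hepatocyte markers (10 of 12 in the table) were 2848 in Tert+/+ old replicate 4, against 745 to 1277 in G3 Tert-/- old kidneys, 895 to 1087 in the other Tert+/+ old kidneys, 1348 to 2194 in G3 Tert-/- young kidneys and 1303 to 1866 in Tert+/+ young kidneys. That library also held the highest Alb (462), Serpina1a (297), Apoa1 (260), Apoa2 (188), Ahsg (124), Fgb (105) and Mup3 (72.1) of all 20. Medians over all 20 were 45.9, 154, 8.64, 29.1, 0.415, 17.1 and 0.415 in that order. The highest Ttr, Apoc3 and Fgg were in other kidneys. Ttr made up much of the sums, with a mean of 991 over all 20 kidneys, where the next highest marker, Serpina1a, averaged 165. With age in G3 Tert-/- mice Ttr fell (log2 -1.52, adjusted p = 0.00513, limma) and Serpina1a rose (log2 1.93, adjusted p = 0.00917, limma). Of the 8 tested markers, 4 were positive and 4 negative there, so a higher sum need not mean more of every marker. Mup3 was near the floor in much of the series, with a median of 0.415 over all 20 kidneys. It was at 0 in all 5 G3 Tert-/- old kidneys. The part of these markers in the Cyp4 results was not tested. Calls in comparisons that use Tert+/+ kidneys, and the members' main differences there, are also given without these libraries. Values below are normalized read counts, and a difference passed where its limma p, adjusted by Benjamini-Hochberg over 14630 tested genes, was under 0.05.

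**Figure D1:**
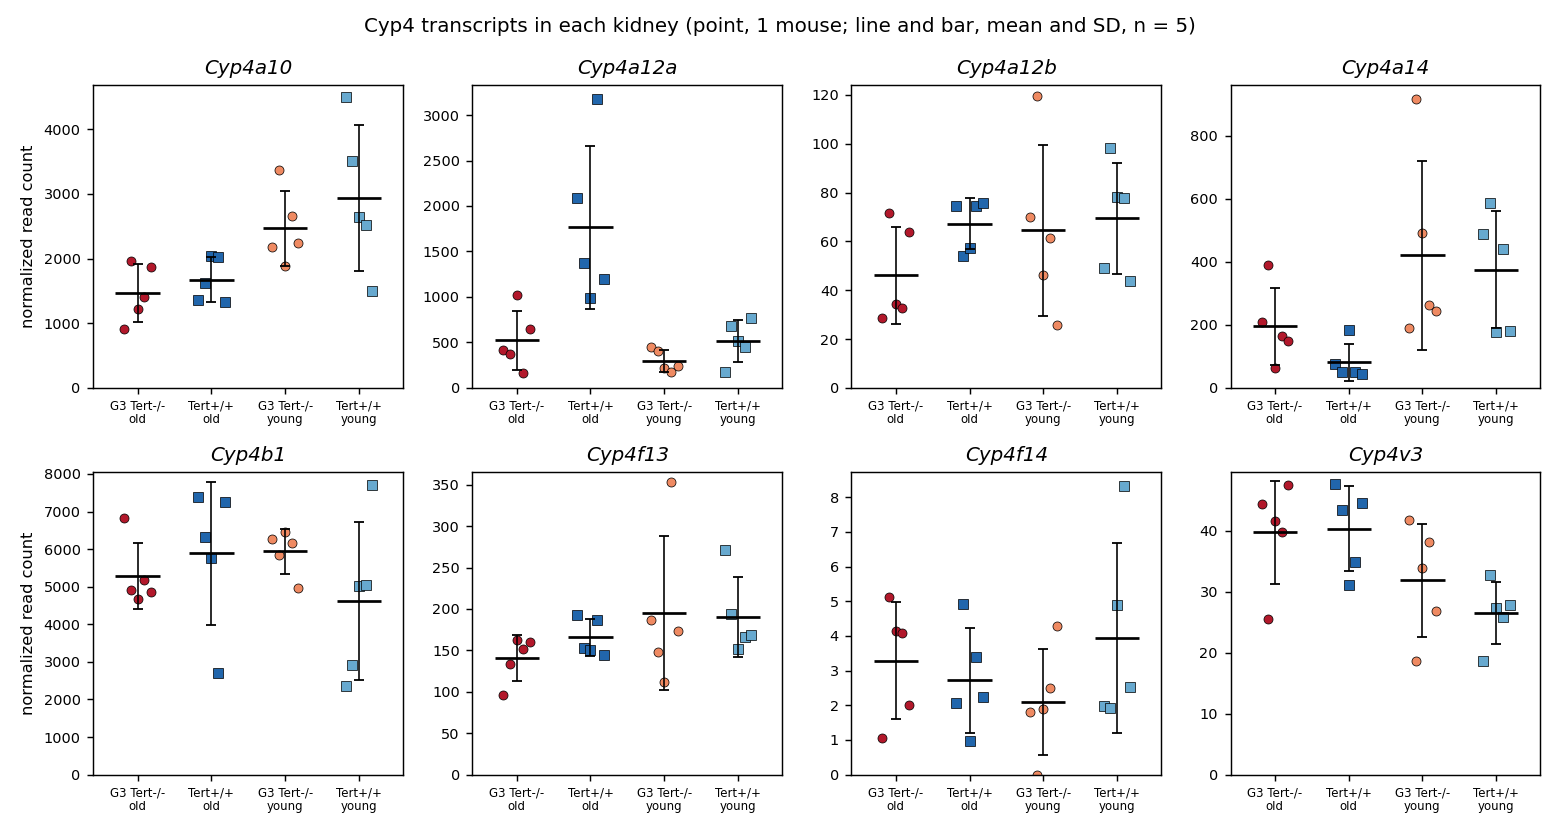
Normalized read counts (vertical axes, each from 0) of the 8 Cyp4 genes in every kidney, by group; points are mice, lines and bars are the mean and SD of 5 mice. Cyp4a12a was highest in Tert+/+ old kidneys (986 to 3180.2), and Cyp4a14 had its lowest counts there (4 of 5 mice at 45.6 to 75.6).

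The member counts spanned more than 3 orders of magnitude, as the plot of counts by mouse shows. Over all 20 kidneys, Cyp4b1 averaged 5433 normalized counts (2369.7 to 7701), Cyp4a10 2136 (907 to 4506), Cyp4a12a 775 (169 to 3180.2), Cyp4a14 268 (45.6 to 916), Cyp4f13 173 (96.1 to 353), Cyp4a12b 61.8 (25.7 to 119), Cyp4v3 34.6 (18.6 to 47.7) and Cyp4f14 3.01 (0 to 8.32). The ranges of neighbours in that order overlapped, apart from Cyp4f14, whose highest count lay below the lowest count of Cyp4v3. Summed over the 8 members, counts were 7129 to 8517 in G3 Tert-/- old kidneys and 8259 to 11223 in Tert+/+ old kidneys. They were 7910.4 to 10810.3 in G3 Tert-/- young kidneys and 7879.6 to 10389.6 in Tert+/+ young kidneys.

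Cyp4a12a, the androgen-dependent 20-HETE synthase of male mice, rose with age in Tert+/+ kidneys. Its counts were 2083, 1369, 986, 3180.2 and 1201 in Tert+/+ old kidneys, against 175, 675, 511, 453 and 763 in Tert+/+ young kidneys. Every old kidney lay above every young one. In G3 Tert-/- mice the counts were 414, 367, 1020.05, 169 and 648 in old kidneys, against 447, 401, 224, 172 and 245 in young kidneys. Here the ages overlapped, and only old replicates 3 and 5 lay above every young kidney. The log2 fold change with age was 1.80 in Tert+/+ mice (SE 0.42, adjusted p = 0.0467, limma) and 0.66 in G3 Tert-/- mice (SE 0.42, adjusted p = 0.491, limma). The call in Tert+/+ mice rests close to the threshold. Without both libraries that stood apart the log2 fold change was 1.20 (adjusted p = 0.169, limma). The call was also lost in 13 of the 20 fits that left out 1 library. Those were the fits without Tert+/+ old replicates 1, 2, 4 or 5 or Tert+/+ young replicates 1, 3 or 4 (log2 1.45 to 1.90, adjusted p 0.0665 to 0.124, limma), and without G3 Tert-/- old replicates 1, 2 or 5 or G3 Tert-/- young replicates 2, 3 or 5 (log2 1.80, adjusted p 0.0533 to 0.0598, limma). The library with the highest sum of hepatocyte markers, Tert+/+ old replicate 4, had the highest Cyp4a12a count. Without it alone the log2 fold change was 1.55 (adjusted p = 0.0927, limma).

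Between genotypes at 47 weeks, Cyp4a12a averaged 524 ± 326 in G3 Tert-/- kidneys and 1764 ± 892 in Tert+/+ kidneys (SD, n = 5 each). The groups overlapped by 1 mouse each, G3 Tert-/- old replicate 3 (1020.05) and Tert+/+ old replicate 3 (986). The log2 fold change was -1.86 (95% interval -2.73 to -0.99), and it did not pass (adjusted p = 0.119, limma). It passed with DESeq2 (adjusted p = 0.0379), and in limma without G3 Tert-/- old replicate 3 (log2 -2.16, adjusted p = 0.0335) or without Tert+/+ young replicate 1 (log2 -1.86, adjusted p = 0.0413). Without both libraries that stood apart it was -1.61 (adjusted p = 0.0980, limma). At 7 weeks Cyp4a12a averaged 298 ± 119 in G3 Tert-/- kidneys and 515 ± 227 in Tert+/+ kidneys (log2 -0.72, 95% interval -1.59 to 0.15; -1.07 without both libraries). The difference between the genotype effects at 47 and 7 weeks was -1.14 on the log2 scale (95% interval -2.36 to 0.091, adjusted p = 0.806, limma) and -0.54 without both libraries (adjusted p = 0.794, limma), so the genotype effect was not shown to depend on age.

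Cyp4a12b, the near copy of Cyp4a12a, was counted at a lower level and did not pass in any comparison. Its counts were 28.5, 71.6, 34.3, 32.7 and 63.7 in G3 Tert-/- old kidneys and 74.6, 54.2, 57.4, 74.3 and 75.7 in Tert+/+ old kidneys. They were 69.9, 119, 46.2, 61.5 and 25.7 in G3 Tert-/- young kidneys and 49.2, 98.4, 78.2, 77.6 and 43.8 in Tert+/+ young kidneys. All 4 groups overlapped. The log2 fold change between genotypes at 47 weeks was -0.62 (95% interval -1.28 to 0.040), and that with age in Tert+/+ mice was 0.0035 (95% interval -0.66 to 0.66). Of the counts of both copies, Cyp4a12a held 83.7 to 96.7% in G3 Tert-/- old kidneys and 94.1 to 97.7% in Tert+/+ old kidneys. It held 73.7 to 90.5% in G3 Tert-/- young kidneys and 78.1 to 94.6% in Tert+/+ young kidneys. The summed counts of both copies differed by 1.65 on the log2 scale with age in Tert+/+ mice, just short of the threshold (adjusted p = 0.0501, limma), and differed by -1.76 between genotypes at 47 weeks (adjusted p = 0.0954, limma).

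Cyp4a14, a PPAR alpha target that hydroxylates fatty acids such as lauric acid, fell with age in Tert+/+ kidneys. Its counts were 75.6, 50.2, 183, 49.6 and 45.6 in Tert+/+ old kidneys, against 487, 585, 178, 439.9 and 181 in Tert+/+ young kidneys. The ages overlapped only through Tert+/+ old replicate 3 (183). In G3 Tert-/- mice the counts were 210.2, 389, 62.3, 164 and 149 in old kidneys, against 189, 916, 493, 264 and 242 in young kidneys. These ages overlapped through old replicates 1 and 2. The log2 fold change with age was -2.25 in Tert+/+ mice (SE 0.47, adjusted p = 0.0237, limma) and -1.09 in G3 Tert-/- mice (SE 0.47, adjusted p = 0.271, limma). Without both libraries that stood apart the Tert+/+ value was -1.99 (adjusted p = 0.0765, limma). The call was lost in 6 of 20 fits with 1 library left out, those without Tert+/+ old replicates 1, 2 or 5 or Tert+/+ young replicates 1, 2 or 4 (log2 -2.28 to -2.04, adjusted p 0.0516 to 0.0864, limma).

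Between genotypes at 47 weeks, Cyp4a14 averaged 195 ± 121 in G3 Tert-/- kidneys and 80.8 ± 58.4 in Tert+/+ kidneys (SD, n = 5 each). This difference of 1.25 on the log2 scale (95% interval 0.27 to 2.23) did not pass (adjusted p = 0.607, limma), and the groups overlapped. It was 1.13 without both libraries that stood apart (adjusted p = 0.630, limma). At 7 weeks Cyp4a14 averaged 421 ± 300.2 in G3 Tert-/- kidneys and 374 ± 185 in Tert+/+ kidneys (log2 0.086, 95% interval -0.89 to 1.07). The genotype effects at the 2 ages differed by 1.16 (95% interval -0.23 to 2.55, adjusted p = 0.814, limma).

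Cyp4a10, also a PPAR alpha target, was lower with age by a similar amount in both genotypes, without passing in either. Its counts were 907, 1963, 1213, 1401 and 1869 in G3 Tert-/- old kidneys, against 2175, 3377, 1881, 2659.9 and 2236 in G3 Tert-/- young kidneys. In Tert+/+ mice they were 1359.6, 1616, 2043, 2018 and 1329.7 in old kidneys, against 4506, 3504, 2638, 2519 and 1502 in young kidneys. The ages overlapped through 1 old kidney in G3 Tert-/- mice (replicate 2) and through 1 young kidney in Tert+/+ mice (replicate 5). Log2 fold changes with age were -0.77 (95% interval -1.27 to -0.27, adjusted p = 0.0996, limma) in G3 Tert-/- mice and -0.74 (95% interval -1.24 to -0.24, adjusted p = 0.200, limma) in Tert+/+ mice. The G3 Tert-/- value was the same and passed without both libraries that stood apart (adjusted p = 0.0357, limma), with an SE of 0.21 against 0.24; neither library is in the 2 groups compared. It also passed without Tert+/+ young replicate 1 (adjusted p = 0.0497, limma) or without Tert+/+ young replicate 5 (adjusted p = 0.0476, limma). Leaving out Tert+/+ young replicate 5, the lowest of its group, made the Tert+/+ value -0.96 (adjusted p = 0.0462, limma), and leaving out both libraries that stood apart made it -0.64 (adjusted p = 0.268, limma). Genotype differences were small, at -0.22 at 47 weeks (95% interval -0.71 to 0.28) and -0.19 at 7 weeks (95% interval -0.68 to 0.31).

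Cyp4a31, the near copy of Cyp4a10, was counted at a like level. It had 1306, 2399.7, 2003, 2169 and 2766 in G3 Tert-/- old kidneys, against 3186, 3861, 2058, 3469.6 and 2974 in G3 Tert-/- young kidneys. Its log2 fold change with age was -0.56 in G3 Tert-/- mice (adjusted p = 0.141, limma) and -0.36 in Tert+/+ mice (adjusted p = 0.513, limma). The summed counts of Cyp4a10 and Cyp4a31 differed with age by -0.65 in G3 Tert-/- mice (adjusted p = 0.108, limma) and by -0.52 in Tert+/+ mice (adjusted p = 0.345, limma). Across the 20 libraries, after group means were taken out, the log2 counts of Cyp4a10 and Cyp4a31 had r = 0.86, against r = 0.30 for Cyp4a12a and Cyp4a12b and r = -0.36 for Cyp4a12a and Cyp4a14. These correlations describe libraries that share depth and size factors, and the copies can share reads.

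**Figure D2:**
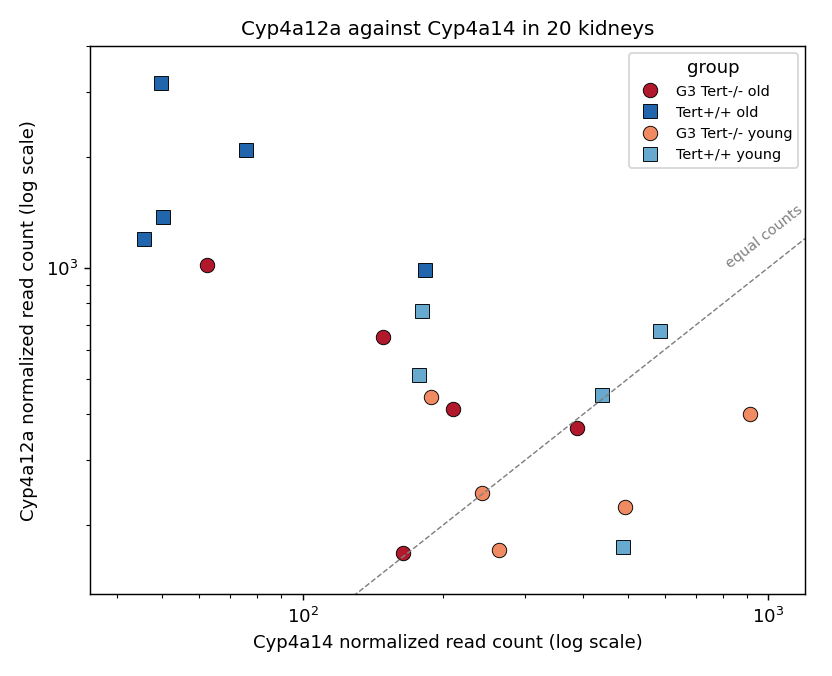
Cyp4a12a count (vertical, log scale) against Cyp4a14 count (horizontal, log scale) in 20 kidneys; each point is a mouse, colour and shape give the group, and the dashed line marks equal counts. The 5 Tert+/+ old kidneys lie above the line at ratios of 5.39 to 64.2, while the other 3 groups spread from 0.360 to 16.4.

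The balance of the 2 genes that passed was set out as the ratio of Cyp4a12a to Cyp4a14 in each mouse, which does not depend on the size factor. The plot of Cyp4a12a against Cyp4a14 shows it. The ratio was 1.97, 0.945, 16.4, 1.02 and 4.36 in G3 Tert-/- old kidneys, against 27.5, 27.3, 5.39, 64.2 and 26.3 in Tert+/+ old kidneys. At 7 weeks it was 2.37, 0.438, 0.455, 0.651 and 1.01 in G3 Tert-/- kidneys, against 0.360, 1.15, 2.87, 1.03 and 4.22 in Tert+/+ kidneys. All Tert+/+ old kidneys lay above all Tert+/+ young kidneys, and 4 of 5 G3 Tert-/- old kidneys lay below all Tert+/+ old kidneys. The mean log2 ratio was 1.41 ± 1.70 in G3 Tert-/- old kidneys and 4.52 ± 1.29 in Tert+/+ old kidneys, and -0.34 ± 1.01 in G3 Tert-/- young kidneys and 0.47 ± 1.38 in Tert+/+ young kidneys (SD, n = 5 each).

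In exact two-sided permutation tests, adjusted over the 4 comparisons, the log2 ratio differed by -3.11 between genotypes at 47 weeks (p = 0.0159, adjusted p = 0.0317). By the exact test it differed by 4.05 with age in Tert+/+ mice (p = 0.00794, the smallest that 5 against 5 can give, adjusted p = 0.0317). The differences of -0.81 between genotypes at 7 weeks (adjusted p = 0.310) and of 1.75 with age in G3 Tert-/- mice (adjusted p = 0.116) did not pass the exact test. Without both libraries that stood apart, the difference at 47 weeks was -2.74 (exact permutation test, p = 0.0317, adjusted p = 0.0635). The difference with age in Tert+/+ mice was then 3.20, with no overlap, at the smallest p that 4 against 4 can give (exact permutation test, p = 0.0286, adjusted p = 0.0635), and it cannot pass at that group size, adjusted beside the other comparisons as they stand. Leaving out 1 library at a time, the genotype call at 47 weeks was lost without G3 Tert-/- old replicates 1, 2 or 4 or Tert+/+ old replicates 1, 2, 4 or 5 (log2 -3.07 to -2.73, adjusted p 0.0635 to 0.0952, exact permutation test). The ages of Tert+/+ mice do not overlap, so with any 1 library left out the exact p there is fixed at its smallest and says nothing about stability. The ratio was chosen with the values of both genes known, so it is another view of the same counts and not separate evidence.

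Cyp4b1, which hydroxylates shorter fatty acids and activates some lung and kidney toxins, had the highest mean count of the family over the 20 kidneys and did not pass in any comparison. Its counts were 6815, 4912, 4678, 5168 and 4866 in G3 Tert-/- old kidneys and 7387, 6325, 5776, 2712 and 7254 in Tert+/+ old kidneys. They were 6273, 5830.3, 6452, 6175 and 4956 in G3 Tert-/- young kidneys and 2369.7, 2927, 5026, 5046 and 7701 in Tert+/+ young kidneys. The 2 libraries that stood apart had the lowest Cyp4b1 of their groups (2712 and 2369.7). Cyp4a10 lay above Cyp4b1 in Tert+/+ young replicates 1 and 2, and Cyp4a12a did so in Tert+/+ old replicate 4. Log2 fold changes ranged from -0.18 (age in G3 Tert-/- mice) to 0.48 (genotype at 7 weeks, 95% interval -0.056 to 1.02, adjusted p = 0.492, limma; 0.27 without both libraries).

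Cyp4f13, of the group whose enzymes inactivate leukotrienes by omega hydroxylation, averaged 141 ± 27.4 in G3 Tert-/- old kidneys and 166 ± 22.4 in Tert+/+ old kidneys. At 7 weeks it averaged 195 ± 93.0 in G3 Tert-/- kidneys and 190.3 ± 47.9 in Tert+/+ kidneys (SD, n = 5 each). Its largest log2 difference was -0.38 with age in G3 Tert-/- mice (95% interval -0.84 to 0.082, adjusted p = 0.451, limma). Cyp4v3, the mouse counterpart of human CYP4V2, a fatty acid hydroxylase whose loss causes a crystalline retinal dystrophy, averaged 39.8 ± 8.44 in G3 Tert-/- old kidneys and 40.3 ± 6.96 in Tert+/+ old kidneys. At 7 weeks it averaged 31.9 ± 9.28 in G3 Tert-/- kidneys and 26.5 ± 5.08 in Tert+/+ kidneys (SD, n = 5 each). The age difference in Tert+/+ mice was 0.59 (95% interval 0.13 to 1.05, adjusted p = 0.305, limma; 0.52 without both libraries that stood apart). Old and young overlapped in both genotypes. Cyp4f14 was counted at 0 to 8.32 in all 20 kidneys and fell below the filter for testing. It was at 0 in 1 G3 Tert-/- young kidney, where a count of 0 allows up to 3 reads.

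**Figure D3:**
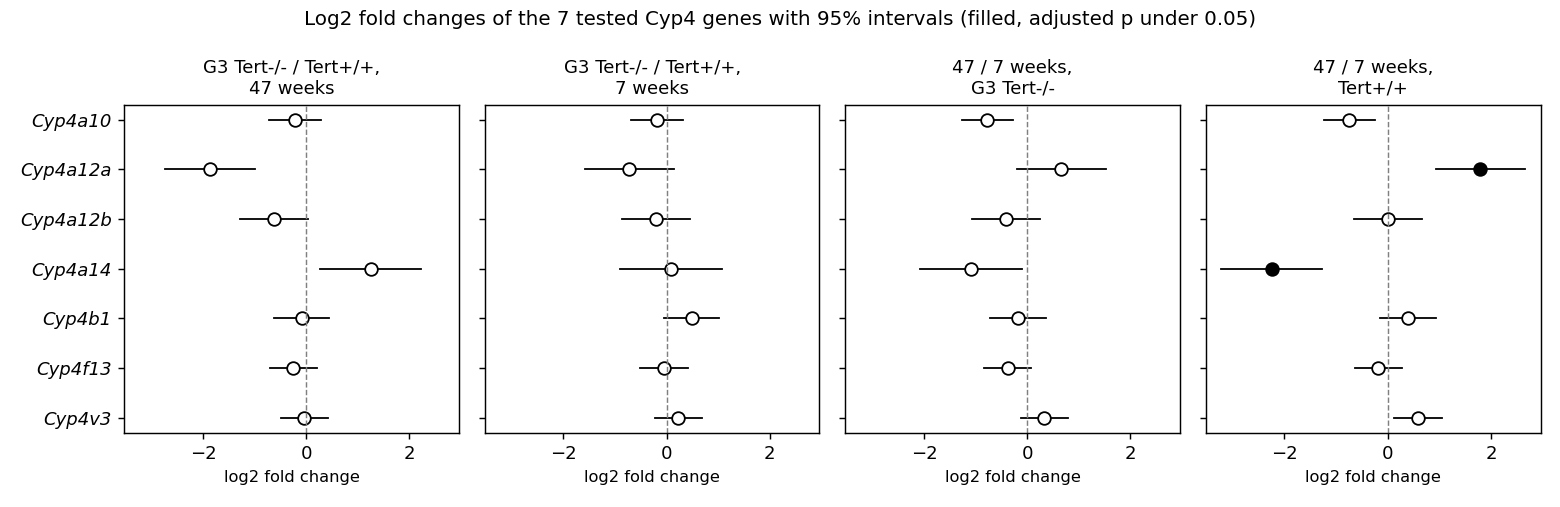
Log2 fold changes (horizontal axes) of the 7 tested Cyp4 genes in 4 comparisons, with 95% intervals from the limma fit; positive means higher in G3 Tert-/- kidneys (left panels) or in old kidneys (right panels), and filled points passed. The 2 filled points are Cyp4a12a (1.80) and Cyp4a14 (-2.25) for age in Tert+/+ mice.

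Set against all tested genes, the members' counts of calls were these. The members were chosen with earlier results of these data known, so a share above that of all genes is not separate evidence. With age in Tert+/+ mice, 2 of 7 tested members passed, 1 higher and 1 lower, where 0.649% of all tested genes passed (0.403% higher and 0.246% lower). There Cyp4a12a, Cyp4a14, Cyp4a10 and Cyp4v3 had an unadjusted limma p under 0.05 (10.6% of all genes). Of the 7, Cyp4a12a alone did not overlap between the ages, where 2.53% of all tested genes did not overlap (1.28% higher). Between genotypes at 47 weeks, 0 of 7 passed (0.0957% of all genes; 1 member by DESeq2 and 0 by edgeR), with limma 2 members, Cyp4a12a and Cyp4a14, had an unadjusted p under 0.05 (6.58% of all genes). Between genotypes at 7 weeks, 0 of 7 passed (0% of all genes), also with edgeR and DESeq2, and 0 had an unadjusted limma p under 0.05 (10.7% of all genes). With age in G3 Tert-/- mice, 0 of 7 passed (2.24% of all genes), also with edgeR and DESeq2, and 2, Cyp4a10 and Cyp4a14, had an unadjusted limma p under 0.05 (14.9% of all genes). For the difference between the genotype effects at 47 and 7 weeks, 0 of 7 passed (0.00684% of all genes), also with edgeR and DESeq2, and 0 had an unadjusted limma p under 0.05 (6.22% of all genes). In the other comparisons every member overlapped between the groups, where the groups did not overlap for 2.31% of all tested genes (genotype at 47 weeks), 1.40% (genotype at 7 weeks) and 4.60% (age in G3 Tert-/- mice). The median log2 fold change of the 7 was -0.22 for genotype at 47 weeks, -0.046 for genotype at 7 weeks, -0.38 for age in G3 Tert-/- mice and 0.0035 for age in Tert+/+ mice, where the medians of all tested genes lay between 0.0013 and 0.010. The genotype comparisons share their control kidneys with the age comparisons, so their values are not independent.

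The remaining Cyp4 genes of the table add little. Of these 7, only Cyp4a31 and Cyp4f16 were tested, and neither passed in any comparison. Cyp4f16 had 14.8 to 29.6 in G3 Tert-/- old kidneys and 10.7 to 22.3 in Tert+/+ old kidneys (log2 0.46, adjusted p = 0.854, limma). Cyp4f15, Cyp4f17, Cyp4f18, Cyp4f41-ps and Cyp4x1 stayed at 0 to 12.1 normalized counts. Summed over all 15 Cyp4 genes of the table, counts were 9269.8 to 10623 in G3 Tert-/- old kidneys and 11657 to 14040.1 in Tert+/+ old kidneys. These sums did not overlap, while those of the 8 members did (7129 to 8517 against 8259 to 11223). How often such sums separate by chance was not examined. At 7 weeks the sums were 10899 to 14704 in G3 Tert-/- kidneys and 11993 to 12852 in Tert+/+ kidneys. These sums over the family were not tested.

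The electron donors and the regulators of these enzymes did not pass, where 0 to 2.24% of all tested genes passed, depending on the comparison. The 4 electron donors gave 0 calls of 20 gene by comparison tests. Por averaged 1689.6 ± 103 in G3 Tert-/- old kidneys and 2213 ± 249.9 in Tert+/+ old kidneys (SD, n = 5 each; log2 -0.38, SE 0.12, adjusted p = 0.417, limma; -0.34 without both libraries, adjusted p = 0.353). Every G3 Tert-/- old kidney (1531 to 1793) lay below every Tert+/+ old kidney (1906 to 2467), as did 1.44% of all tested genes. Of 13 regulators, among them Ppara, Hnf4a and the growth hormone mediators Stat5a and Stat5b, 0 passed in any comparison. Ppara averaged 883 ± 95.1 in G3 Tert-/- old kidneys and 959 ± 97.5 in Tert+/+ old kidneys (SD, n = 5 each). Bcl6, a repressor that is sex-biased in mouse liver, had log2 differences of -0.86 at 47 weeks (95% interval -1.92 to 0.21, adjusted p = 0.819, limma) and -1.44 at 7 weeks (95% interval -2.50 to -0.37, adjusted p = 0.435, limma).

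Several genes of fatty alcohol and aldehyde oxidation and of peroxisomal oxidation changed with age, not all of which act on products of the Cyp4 step. Of 5 tested genes of fatty alcohol and aldehyde oxidation, Aldh1a1, a retinaldehyde dehydrogenase, rose with age in both genotypes. It averaged 90.5 ± 17.9 in G3 Tert-/- old kidneys and 20.1 ± 8.67 in G3 Tert-/- young kidneys (log2 2.18, adjusted p = 9.21e-06, limma). In Tert+/+ kidneys it averaged 58.4 ± 6.53 in old and 19.8 ± 7.79 in young mice (log2 1.58, adjusted p = 0.00131, limma; 1.61 without both libraries that stood apart, adjusted p = 0.00359). Aldh3a2, the fatty aldehyde dehydrogenase that follows omega hydroxylation, fell with age in G3 Tert-/- mice, with 228 ± 26.6 in old and 365 ± 79.3 in young kidneys (log2 -0.66, adjusted p = 0.0385, limma). This call was lost with library-total scaling (adjusted p = 0.0771, limma) and in 8 of 20 fits with 1 library left out, those without G3 Tert-/- old replicates 2, 3, 4 or 5, G3 Tert-/- young replicates 1, 2 or 4 or Tert+/+ old replicate 2 (adjusted p 0.0504 to 0.106, limma). Its Tert+/+ averages were 278 ± 63.2 in old and 372 ± 79.1 in young kidneys, and that difference did not pass. Of 23 genes of peroxisomal oxidation, which shortens dicarboxylic acids, 5 fell with age in G3 Tert-/- mice (among them Nudt19, Eci2, Crot and Abcd3), where 1.31% of all tested genes fell. 1 fell with age in Tert+/+ mice (Ehhadh), where 0.246% of all tested genes fell, and 1 was lower in G3 Tert-/- mice at 47 weeks (Nudt19), where 0.0820% of all tested genes were. The count of 5 was 10 without both libraries that stood apart, when 664 of all genes passed with age in G3 Tert-/- mice against 327 with all libraries. It was 3 with library-total scaling, 1 without G3 Tert-/- old replicate 4, 2 without G3 Tert-/- old replicate 5 or young replicate 1, and 3 without G3 Tert-/- old replicate 2 or young replicates 2, 3 or 5. Abcd3 (log2 -0.35, adjusted p = 0.0471, limma) passed in 3 of 20 fits with 1 library left out, those without Tert+/+ old replicate 4 or Tert+/+ young replicates 1 or 2, and was also lost with no filter, with library-total scaling and with edgeR. Nudt19, a CoA hydrolase that is higher in males, averaged 2111 ± 283 in G3 Tert-/- old kidneys and 3531 ± 242 in Tert+/+ old kidneys (log2 -0.75, adjusted p = 0.0125, limma; -0.73 without both libraries, adjusted p = 0.0189). That call was lost without G3 Tert-/- old replicates 2 or 4 (adjusted p 0.0546 to 0.0593, limma).

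**Figure D4:**
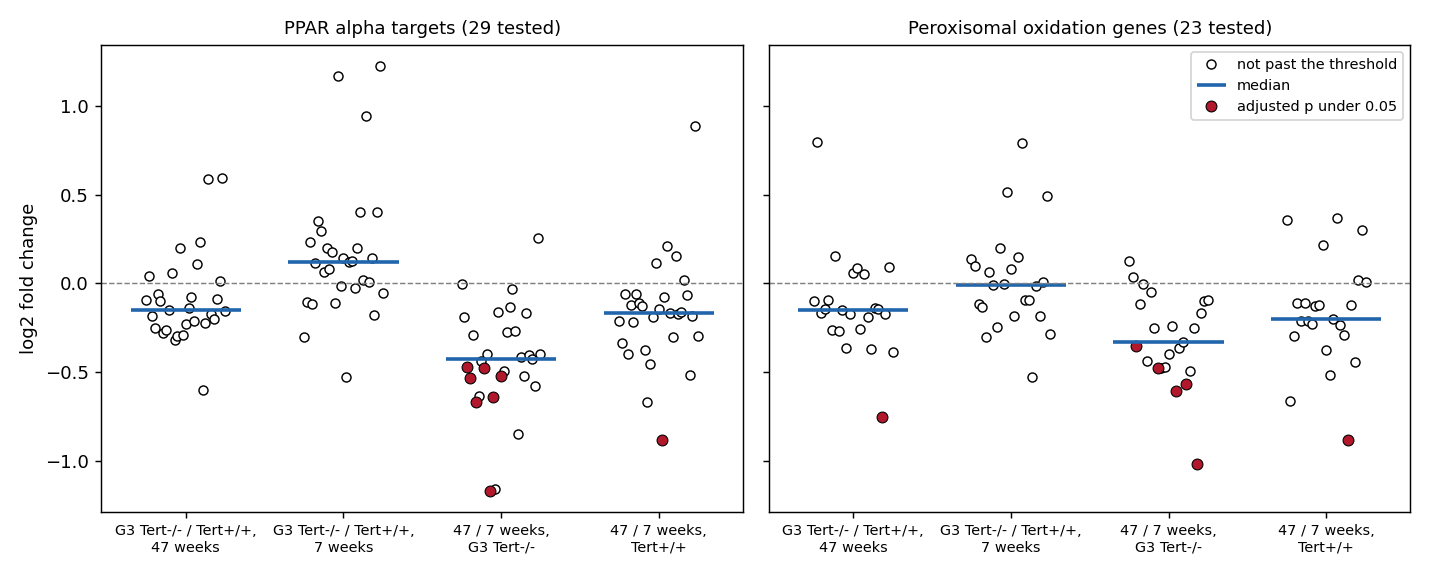
Log2 fold changes (vertical axis) of the PPAR alpha targets (left, 29 genes) and the peroxisomal oxidation genes (right, 23 genes) in 4 comparisons; each point is a gene, filled points passed, and lines are medians. With age in G3 Tert-/- mice, 28 of 29 PPAR alpha targets lay below 0 and 7 passed.

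Other targets of PPAR alpha, listed without Cyp4 genes, were mostly at lower counts in old kidneys, as the plot of PPAR alpha targets shows. With age in G3 Tert-/- mice, 28 of 29 tested targets were negative, with a median of -0.43, and 7 fell (1.31% of all tested genes fell). The count was 11 without both libraries that stood apart, 1 without G3 Tert-/- old replicate 4, 3 without G3 Tert-/- young replicate 1 and 4 without replicate 2 of either G3 Tert-/- group. Among the 7 were Cpt2, Acadl, Acadm and Acot1 of fatty acid metabolism, Angptl4, a secreted lipase inhibitor, and Cd36, a fatty acid carrier. Of these 6, Cpt2 passed in all 20 fits with 1 library left out, Acadl in 19, Acadm and Acot1 in 15 each, Angptl4 in 13 and Cd36 in 12. Cpt2 averaged 388 ± 38.1 in G3 Tert-/- old kidneys and 557 ± 53.7 in G3 Tert-/- young kidneys (log2 -0.52, adjusted p = 0.00381, limma). With age in Tert+/+ mice, 24 of 29 were negative with a median of -0.16, and 1 fell, the peroxisomal enzyme Ehhadh (0.246% of all tested genes fell). It averaged 178 ± 31.6 in Tert+/+ old kidneys and 337 ± 116 in Tert+/+ young kidneys (log2 -0.88, adjusted p = 0.0249, limma; -0.79 without both libraries, adjusted p = 0.0124). This call was lost without Tert+/+ old replicates 1, 2, 3 or 5 (adjusted p 0.0516 to 0.0923, limma). Between genotypes, 0 of 29 passed at either age, where 0.0957% of all tested genes passed at 47 weeks and 0% at 7 weeks. Of the 29, 21 were negative at 47 weeks and 9 were negative at 7 weeks. Of all tested genes, 47.9% were negative for genotype at 47 weeks, 49.8% for genotype at 7 weeks, 49.5% for age in G3 Tert-/- mice and 49.3% for age in Tert+/+ mice. Some genes, such as Ehhadh, stand in both lists. Summed proximal tubule markers, in cells that hold many of these enzymes, were 45525 to 52907 in G3 Tert-/- old kidneys and 48124 to 60191 in G3 Tert-/- young kidneys. Of the 8 markers, 2 fell with age in G3 Tert-/- mice, the transporters Slc5a2 (log2 -0.58, adjusted p = 0.0338, limma) and Slc22a6 (log2 -0.69, adjusted p = 0.0399, limma), and the median of the 8 was -0.041. With 1 library left out Slc5a2 passed in 13 of 20 fits and Slc22a6 in 7. Summed adipocyte markers (6 of 6 in the table) were 269 to 3676 with a median of 601 in G3 Tert-/- old kidneys, and 277 to 9777 with a median of 1254 in G3 Tert-/- young kidneys. With age in G3 Tert-/- mice 0 of these 6 passed, 5 were negative and their median log2 fold change was -0.88. Fat cells also express the listed targets Cd36, Angptl4 and Cidec, and Cidec stands in both lists. The part of either marker list in these counts was not tested.

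The other pathway of arachidonic acid, by cyclooxygenases, lipoxygenases and epoxygenases, gave 0 calls among 24 tested genes in every comparison. Of all tested genes, 0% (genotype at 7 weeks) to 2.24% (age in G3 Tert-/- mice) passed, so a count of 0 among 24 is near that share. Among 16 tested genes known as higher in male kidneys, 3 were lower in G3 Tert-/- kidneys at 47 weeks (Slco1a1, Nudt19 and Acsm3), where 0.0820% of all tested genes were lower. With age, 7 fell in G3 Tert-/- mice (1.31% of all tested genes) and 2 fell in Tert+/+ mice (Acsm3 and Cndp2; 0.246% of all tested genes). These counts were 3, 7 and 2 without both libraries that stood apart, and 1 to 3, 7 and 1 to 2 with 1 library left out. Nudt19 and Acsm3 were both lost at 47 weeks without G3 Tert-/- old replicates 2 or 4. Acsm3 was also lost there without G3 Tert-/- old replicate 1 or Tert+/+ old replicates 1 or 5 (adjusted p 0.0516 to 0.0565, limma). With age in Tert+/+ mice, Cndp2 was lost without Tert+/+ old replicates 2, 3 or 5 or Tert+/+ young replicates 4 or 5. Slco1a1, an organic anion carrier, averaged 304 ± 118 in G3 Tert-/- old kidneys and 1256 ± 244 in Tert+/+ old kidneys (log2 -2.10, adjusted p = 5.73e-05, limma; -2.09 without both libraries, adjusted p = 0.000104). With age in Tert+/+ mice, 7 of the 16 were positive, 9 were negative and 0 passed as higher, where 0.403% of all tested genes did. Among 9 tested genes known as higher in female kidneys, Slc7a12, Abcc4 and Prlr rose and Slco1a6 fell with age in both genotypes. Of all tested genes, 0.930% rose and 1.31% fell in G3 Tert-/- mice, and 0.403% rose and 0.246% fell in Tert+/+ mice. The Slco1a6 call in G3 Tert-/- mice was lost without old replicates 1 or 5 or young replicates 2 or 4 of that genotype. The Prlr call in Tert+/+ mice (log2 1.22, adjusted p = 0.0453, limma) was lost with library-total scaling (adjusted p = 0.0574, limma) and with edgeR (adjusted p = 0.0665). With 1 library left out it passed in 5 of 20 fits, those without Tert+/+ old replicate 4, Tert+/+ young replicates 1 or 2, G3 Tert-/- old replicate 3 or G3 Tert-/- young replicate 1, and it was 1.53 without both libraries (adjusted p = 0.00359, limma).

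For each tested member, the 3 genes with the most alike pattern were found among 12110 genes by the correlation of log2 counts over 20 libraries after group means were taken out. Cyp4b1 was most like Syvn1 (r = 0.97), Snx3 (r = 0.96) and Nus1 (r = 0.96). Cyp4f13 was most like Scand1 (r = 0.94), Selenbp1 (r = 0.92) and Ttc36 (r = 0.92). For Cyp4a12a they were Mrpl12 (r = 0.89), Anp32b (r = 0.84) and Psma7 (r = 0.82), and for Cyp4a10 they were Phkg2 (r = 0.87), Klhdc8a (r = 0.86) and Ndrg2 (r = 0.83). For Cyp4a14 they were Ajuba (r = 0.84), Slc6a4 (r = 0.78) and Gm42615 (r = 0.77), for Cyp4v3 they were Fam118a (r = 0.85), Olfm4 (r = 0.74) and Atg13 (r = 0.74), and for Cyp4a12b they were Icam1 (r = 0.76), Eid2 (r = 0.75) and Pxmp2 (r = 0.70). The highest of so many correlations is high by selection. Over the 18 libraries without those that stood apart, these r values were 0.68 to 0.95.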

How the data were processed

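RNA from kidneys of 20 male mice was sequenced from the 3′ end (QuantSeq, sense strand), per the labels' protocols. The deposited signal holds normalized counts: the authors divided each gene's reads by a size factor of its library. This is read from the values: all were whole multiples (100%, tolerance 1e-06) of 1 step per library, so whole reads were recovered by division. The submitters' processing notes name build GRCm38 and, with no roles, HTSeq 0.6.1, DESeq2, TopHat2 2.0.10, Bowtie 1.0.0 and SAMtools 0.1.19.

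Genes at 10 or more normalized counts in 5 or more libraries (14630) were tested on log2(value + 1) with limma 3.58.1 (R 4.3.3, trend on intensity, 4 group means, two-sided). This scale understates fold changes of low genes. edgeR 4.0.16 and DESeq2 1.42.0 on recovered reads, other scalings and filters, and fits that left libraries out were alternatives.

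The fit was tested on data simulated for genotype at 47 weeks. It recovered 35.8% of changes of 1.5-fold, 76.1% of 2-fold and 100% of 4-fold. Of its 145 calls, 4 were false. Genes of the lowest counts were not given changes. Genes other than the 8 members were named by rule: other Cyp4 genes, electron donors and regulators always, up to 4 passing genes per list and comparison, and the 3 most alike genes per member; further genes are named to complete a count of passing genes. Members, gene lists and both left-out libraries were chosen with earlier results of these data known. Sequences are from GENCODE M21 transcripts, with the haem-binding loop found by its P450 signature. Intervals are 95% and, like the limit of 3 reads for a count of 0, do not cover errors in assigning reads to copies. Some listed genes are counted but not reported by name here.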

Additional observations from a re-analysis of the deposited data

Results flagged for a closer look

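Cyp4a14 in Tert+/+ old replicate 3 was 183 normalized counts, far above the other Tert+/+ old kidneys (45.6 to 75.6). Cyp4b1 in G3 Tert-/- old replicate 1 was 6815, far above the other G3 Tert-/- old kidneys (4678 to 5168). Both stood beyond Dixon's 95% value for 5 samples, as 2 of 44 sets did, where chance gives about 1 in 20. The sets were the members, Cyp4a31, the Cyp4a12a to Cyp4a14 ratio and the Cyp4a12a share of both copies, each in every group. Slco1a1, a carrier known as higher in males, had a genotype effect that was lower by 2.09 on the log2 scale at 47 weeks than at 7 weeks (-2.09, adjusted p = 0.0199, limma), and this call was lost in 10 of 20 fits that left out 1 library (adjusted p up to 0.0733, limma) and without both libraries that stood apart (-1.98, adjusted p = 0.0640, limma).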

How the results depend on the processing

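Of 945 repeated values of the members, 880 kept direction and side of the threshold, 21 lost it, 7 gained it and 37 changed sign. The cause was not tested. All 21 losses were of the 2 main calls, Cyp4a12a and Cyp4a14 with age in Tert+/+ mice. Leaving out 1 library lost them in 13 and 6 of 20 fits, and leaving out both libraries that stood apart lost both calls. No other member value passed in the main fit, so most of the 880 are values that passed in neither fit. The sign changes were Cyp4v3 for genotype at 47 weeks with library-total scaling (0.042), Cyp4a10 in the difference of genotype effects (0.017 with library-total scaling, 0.068 with edgeR and 0.068 with DESeq2), Cyp4f13 for genotype at 7 weeks (0.039 with edgeR, 0.035 with DESeq2, 0.089 without both libraries that stood apart) and Cyp4a12b for age in Tert+/+ mice (-0.042 with edgeR, -0.046 with DESeq2, -0.14 without both libraries). With 1 library left out these ranged from -0.12 to 0.11 for Cyp4v3, -0.21 to 0.19 for Cyp4a10, -0.29 to 0.12 for Cyp4f13 and -0.14 to 0.14 for Cyp4a12b. Signs also changed for Cyp4b1 (genotype at 47 weeks, -0.35 to 0.016), Cyp4a12b (genotype at 7 weeks, -0.47 to 0.071), Cyp4a14 (genotype at 7 weeks, -0.26 to 0.31), Cyp4f13 (difference of genotype effects, -0.37 to 0.041) and the Cyp4a10 and Cyp4a31 sum (difference of genotype effects, -0.25 to 0.037).

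The count of members that passed was 1 for genotype at 47 weeks with DESeq2 (main 0, 0 to 1 with 1 library left out), 1 for age in G3 Tert-/- mice without both libraries (main 0, 0 to 1) and 0 for age in Tert+/+ mice without both libraries (main 2, 0 to 3). The Cyp4a12a and Cyp4a12b sum passed for age in Tert+/+ mice with pseudocount 5 (1.64), no filter (1.65), library-total scaling (1.65), edgeR (1.65) and DESeq2 (1.65), and was 1.10 without both libraries, ranging from 1.34 to 1.82 with 1 library left out. For genotype at 47 weeks it passed with DESeq2 (-1.68; -2.04 to -1.44 with 1 library left out). The Cyp4a10 and Cyp4a31 sum passed for age in G3 Tert-/- mice without both libraries (-0.65; -0.77 to -0.49 with 1 library left out). The Cyp4a12a to Cyp4a14 ratio did not pass without both libraries for genotype at 47 weeks (-2.74) or age in Tert+/+ mice (3.20, where the ages still did not overlap and 4 against 4 mice cannot give a smaller p), and ranged from -3.76 to -2.73 and from 3.56 to 4.57 with 1 library left out.

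Over all genes, DESeq2 called 52, 13, 530, 211 and 7 genes for genotype at 47 and 7 weeks, age in G3 Tert-/- and Tert+/+ mice and the difference of genotype effects, where limma called 14, 0, 327, 95 and 1. Of the calls, 14.3% were higher at 47 weeks by genotype with limma, 26.7% with edgeR and 36.5% with DESeq2; 41.6% were higher with age in G3 Tert-/- mice with limma and 56.2% with library-total scaling; 62.1% were higher with age in Tert+/+ mice with limma and 46.0% with DESeq2. No paired analysis was possible because replicate numbers follow the listing order and pair no mice. Cyp4f14 (0 to 8.32 normalized counts) fell below the filter and was left untested. The part of depth in this was not tested.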
